A study of Mus musculus with 3 samples.

Results

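A set of 9 genes of the TGF-beta and PDGF signalling systems was followed through the cells of fibrotic mouse kidney. Out of 27998 genes in the deposited tables, they were the TGF-beta ligands Tgfb1, Tgfb2 and Tgfb3, the PDGF ligands Pdgfa and Pdgfb, the receptors Tgfbr1, Tgfbr2 and Pdgfrb, and the matricellular gene Ctgf, listed as Ccn2 in the current annotation. They were chosen by name, with earlier results of these data known. Cells came from whole kidneys of mice aged 6 to 8 weeks, taken on day 14 after folic acid, which injures the tubule and leaves the kidney fibrotic. There were 2 libraries from mice lacking the lipase acyloxyacyl hydrolase in every cell, Aoah-/- 2 and Aoah-/- 3, and 1 library from wild-type kidney, WT 3. All 3 libraries came from folic acid-treated mice and no uninjured kidney was analysed here, so no value reported is a response to injury. The labels do not say whether a library came from a single animal, while a figure legend of the paper counts 1 WT mouse and 2 Aoah-/- mice. The study's methods describe the Aoah-/- line as backcrossed to C57BL/6J with littermate controls.

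TGF-beta is made as a latent complex that is stored in the matrix and on cell surfaces. Once released, it binds TGFBR2, which recruits and phosphorylates TGFBR1, and SMAD proteins carry the signal to the nucleus, where genes such as Ctgf and Fn1 are induced. PDGF-A and PDGF-B are secreted as dimers, and the receptor PDGFRB, which binds PDGF-B, is a classical surface protein of pericytes and fibroblasts. In the kidney the endothelium is known as a source of PDGF-B for pericytes, and both systems are known drivers of fibroblast activation and matrix deposition.

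The libraries held 23072 to 25516 barcodes and 158551992 to 167222984 unique molecular identifiers (UMIs), each UMI standing for 1 captured RNA molecule. After filtering, 18202 to 21368 cells per library remained, with medians of 3357 to 3859 UMIs per cell. The cells fell into 53 clusters, of which 37 were named from fixed marker lists as 20 classes, each written here as "X-like", and the 9 genes themselves played no part in the clustering. The level of a gene is its UMIs summed over the cells of a class in a library, per 1000000 UMIs of that class and library (CPM), and intervals are exact Poisson 95% intervals that cover counting error only. The UMIs are tags from the 3′ ends of transcripts, so levels of different genes were not set against each other. The lowest UMI total per barcode was 1672 in Aoah-/- 3 and 500 in the other libraries, and 1.34% to 1.5% of barcodes recurred in another library. Several clusters came almost wholly from 1 library. With each library weighted equally, 92.9% and 93.8% of the peritoneal macrophage-like clusters and 89.8% of a B lymphocyte-like cluster came from Aoah-/- 2. By the same measure 93.1% of a fibroblast-like cluster led by Dcn and Pi16 came from WT 3, and 4 clusters of mixed markers with at least 50 cells that were left unnamed came to at least 81.0% from Aoah-/- 3. Smaller unnamed clusters of 44, 27, 21 and 16 cells held only cells of Aoah-/- 3. Of Aoah itself, 6.06 CPM were counted in Aoah-/- 2, 5.68 CPM in Aoah-/- 3 and 15.3 CPM in WT 3, over all barcodes. Its transcripts were therefore still counted in the Aoah-/- libraries, at a lower level than in the WT library.

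**Figure D1:**
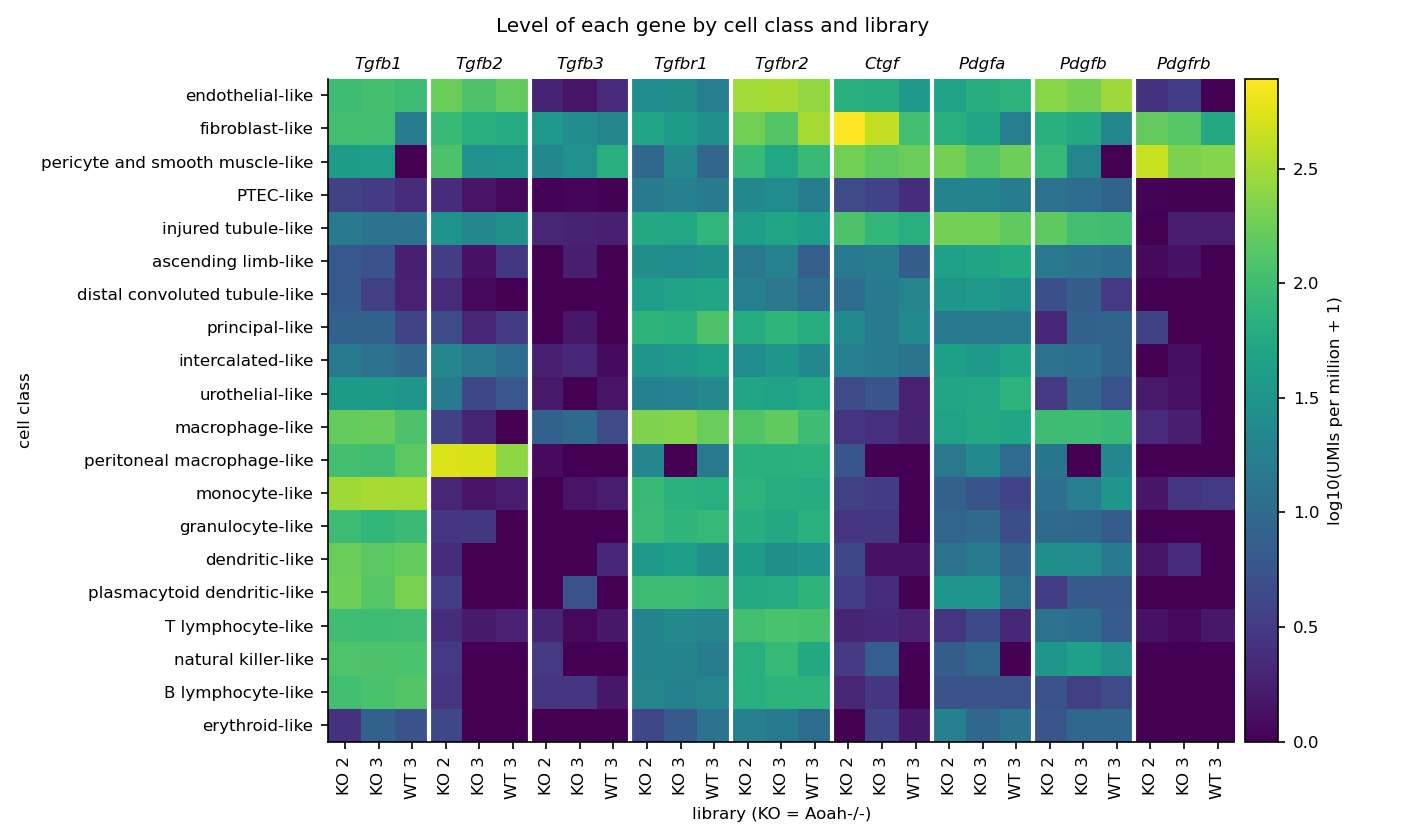
Level of each of the 9 genes, as log10 of CPM plus 1, in 20 cell classes (rows) and the 3 libraries (columns; KO stands for Aoah-/-). Tgfb1 was highest in monocyte-like cells, Tgfb2 in peritoneal macrophage-like and endothelial-like cells, and Pdgfrb in pericyte- and fibroblast-like cells; the pericyte- and smooth muscle-like class had 23 cells in WT 3 and the peritoneal macrophage-like class 13 cells in Aoah-/- 3.

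Tgfb1 (ENSMUSG00000002603, chr7:25687002-25705077, plus strand, build GRCm38), the TGF-beta form best known in kidney fibrosis, was above all a leukocyte transcript. In monocyte-like cells its level was 300.4 CPM in Aoah-/- 2 (277 to 326), 326 CPM in Aoah-/- 3 (304 to 350.3) and 316 CPM in WT 3 (288 to 346). The 3 libraries thus lay close together, with a log2 ratio, here always the Aoah-/- mean over WT 3, of -0.01 ± 0.08 (SD of the 2 Aoah-/- libraries). The next classes were plasmacytoid dendritic-like (135 to 203 CPM), dendritic-like (147 to 173 CPM) and macrophage-like cells (122 to 166 CPM), whose ranges overlapped one another but not that of monocyte-like cells. Endothelial-like cells held 96.6, 109.8 and 95.0 CPM in Aoah-/- 2, Aoah-/- 3 and WT 3. Tubule levels were low, with 2.67, 2.22 and 1.31 CPM in proximal tubule-like cells (PTEC-like) in the same order. Of all Tgfb1 UMIs, 57.4%, 67.4% and 71.2% lay in leukocyte-like classes other than the peritoneal macrophage-like cells.

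Tgfb2 (ENSMUSG00000039239, chr1:186622792-186705989, minus strand) had a different distribution. Among the 18 classes with at least 50 cells in each library it was highest in endothelial-like cells, with 169 CPM in Aoah-/- 2, 122 CPM in Aoah-/- 3 and 157 CPM in WT 3, so that the WT library lay between the Aoah-/- libraries. Fibroblast-like cells followed with 61.1 to 87.3 CPM, injured tubule-like cells with 20.8 to 29.2 CPM and intercalated-like cells with 10.0 to 20 CPM. Endothelial-like cells were far from uniform. In the cluster led by Tm4sf1 and Ptprb, Tgfb2 stood at 290.2, 243 and 243 CPM in Aoah-/- 2, Aoah-/- 3 and WT 3. In the cluster led by Plvap and Fabp4, it stood at 15.7, 9.81 and 12.2 CPM in the same order. The first cluster was the higher one in every library.

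The highest level of Tgfb2 was found in peritoneal macrophage-like cells, which were described apart from the other macrophage-like cells. They carried the markers of large peritoneal macrophages, among them Gata6, a transcription factor required for their identity, at 86.8, 44.7 and 52.7 CPM in Aoah-/- 2, Aoah-/- 3 and WT 3, against 1.08, 0.121 and 0.438 CPM in the other macrophage-like cells. The lipoxygenase gene Alox15 was at 1887, 2012 and 1801 CPM in them, and Prg4, the gene of lubricin, at 2884, 2314 and 2275 CPM. There were 1382 such cells in Aoah-/- 2, 13 in Aoah-/- 3 and 77 in WT 3. Their Tgfb2 level was 549.6 CPM in Aoah-/- 2 (534 to 565), 525 CPM in Aoah-/- 3 (386 to 699) and 254 CPM in WT 3 (217 to 296). The other macrophage-like cells had 2.71 CPM in Aoah-/- 2, from 15 UMIs, 0.970 CPM in Aoah-/- 3, from 8 UMIs, and 0 UMIs in 1735 cells of WT 3, which allows a level of up to 0.657 CPM. The level was therefore 203-fold higher in the peritoneal macrophage-like cells of Aoah-/- 2. In those of WT 3 it was 387-fold above the 0.657 CPM limit. Counting error is not part of these ratios. After each cell was thinned to 1000 UMIs, 37.0% of the peritoneal macrophage-like cells of Aoah-/- 2 (34.4% to 39.7%, exact binomial interval, median depth 5726.5 UMIs) and 14.3% of those of WT 3 (7.35% to 24.1%, 8028 UMIs) had a Tgfb2 UMI. The unthinned shares were 62.7% and 41.6%. T lymphocyte-like cells, taken as the background of free RNA, had one in 0.0559% and 0% (2566 and 2969 UMIs).

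Most of the Tgfb2 of 1 library came from these cells. They held 75.9% of the Tgfb2 UMIs of Aoah-/- 2, 3.34% of those of Aoah-/- 3 and 13.1% of those of WT 3, at 6.47%, 0.0660% and 0.423% of the cells. Over all kept cells, Tgfb2 was at 48.1 CPM in Aoah-/- 2, 10.8 CPM in Aoah-/- 3 and 10.0 CPM in WT 3. Without the peritoneal macrophage-like cells the levels were 12.4 (11.8 to 13.0), 10.5 (9.90 to 11.0) and 8.74 CPM (8.23 to 9.28). Aoah-/- 2 then lay much closer to the other libraries, though it was still the highest and its interval overlapped neither of theirs. Besides Tgfb2, the peritoneal macrophage-like cells differed from the other macrophage-like cells in other members, with Tgfbr1, Pdgfa and Pdgfb lower in Aoah-/- 2 and WT 3. Tgfbr1 was at 20.9 CPM in Aoah-/- 2 and 14.0 CPM in WT 3, against 214 and 168 CPM in the other macrophage-like cells, and Pdgfb was at 12.3 and 21.7 CPM against 94.3 and 90.9 CPM. Pdgfa was at 13.6 and 9.30 CPM against 45.2 and 49.9 CPM. Tgfb3 was at 0.228 CPM in Aoah-/- 2, from 2 UMIs, against 6.86 CPM, while 0 UMIs in WT 3 allow up to 4.65 CPM, so that a difference from the 3.72 CPM of the other macrophage-like cells was not detectable at this depth. Tgfb1 was shared by both, at 109 and 144 CPM in peritoneal macrophage-like and 162 and 122 CPM in the other macrophage-like cells.

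The stretch of the Tgfb2 promoter around the transcription start is shown because the cells with the highest Tgfb2 carried Gata6, and because it holds the letters bound by GATA factors. It is bases 131 to 280 of the 300-base RefSeq window on GRCm38.p6, at chr1:186705960-186706109 on the minus strand, with 30 bases after the start, and the motif TTATCT, which is AGATAA on the other strand, is in capitals.
Tgfb2: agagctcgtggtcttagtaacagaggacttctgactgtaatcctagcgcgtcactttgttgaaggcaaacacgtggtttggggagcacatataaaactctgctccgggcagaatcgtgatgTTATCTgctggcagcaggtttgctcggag
The motif, searched on both strands, began at base 252 of the window, just after the start. It was found in 11.2% of the 32851 promoter windows of this length, so its presence is common. Of the 5 genes of the group with a window (Tgfb1, Tgfb2, Tgfbr1, Tgfbr2 and Pdgfa), only Tgfb2 held it. No binding was measured here.

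Tgfb3 (ENSMUSG00000021253, chr12:86056745-86079041, minus strand) was counted rarely, with 109, 174 and 260 UMIs in all kept cells of Aoah-/- 2, Aoah-/- 3 and WT 3. Among classes with at least 50 cells in each library it was highest in fibroblast-like cells, at 33.7, 25.4 and 19.7 CPM in that order, and the Poisson intervals of the 3 libraries overlapped (19.6 to 54.0, 17.7 to 35.3 and 15 to 25.4 CPM). Macrophage-like cells followed at 6.86, 8.97 and 3.72 CPM. All other classes with enough cells were below 5 CPM in every library. The pericyte- and smooth muscle-like cells, too few in WT 3 for this ranking, had 21.5, 28.4 and 64.4 CPM from 5, 18 and 8 UMIs, and in an unnamed cluster with fibroblast and mesothelial markers the level was 86.2 CPM in WT 3.

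**Figure D2:**
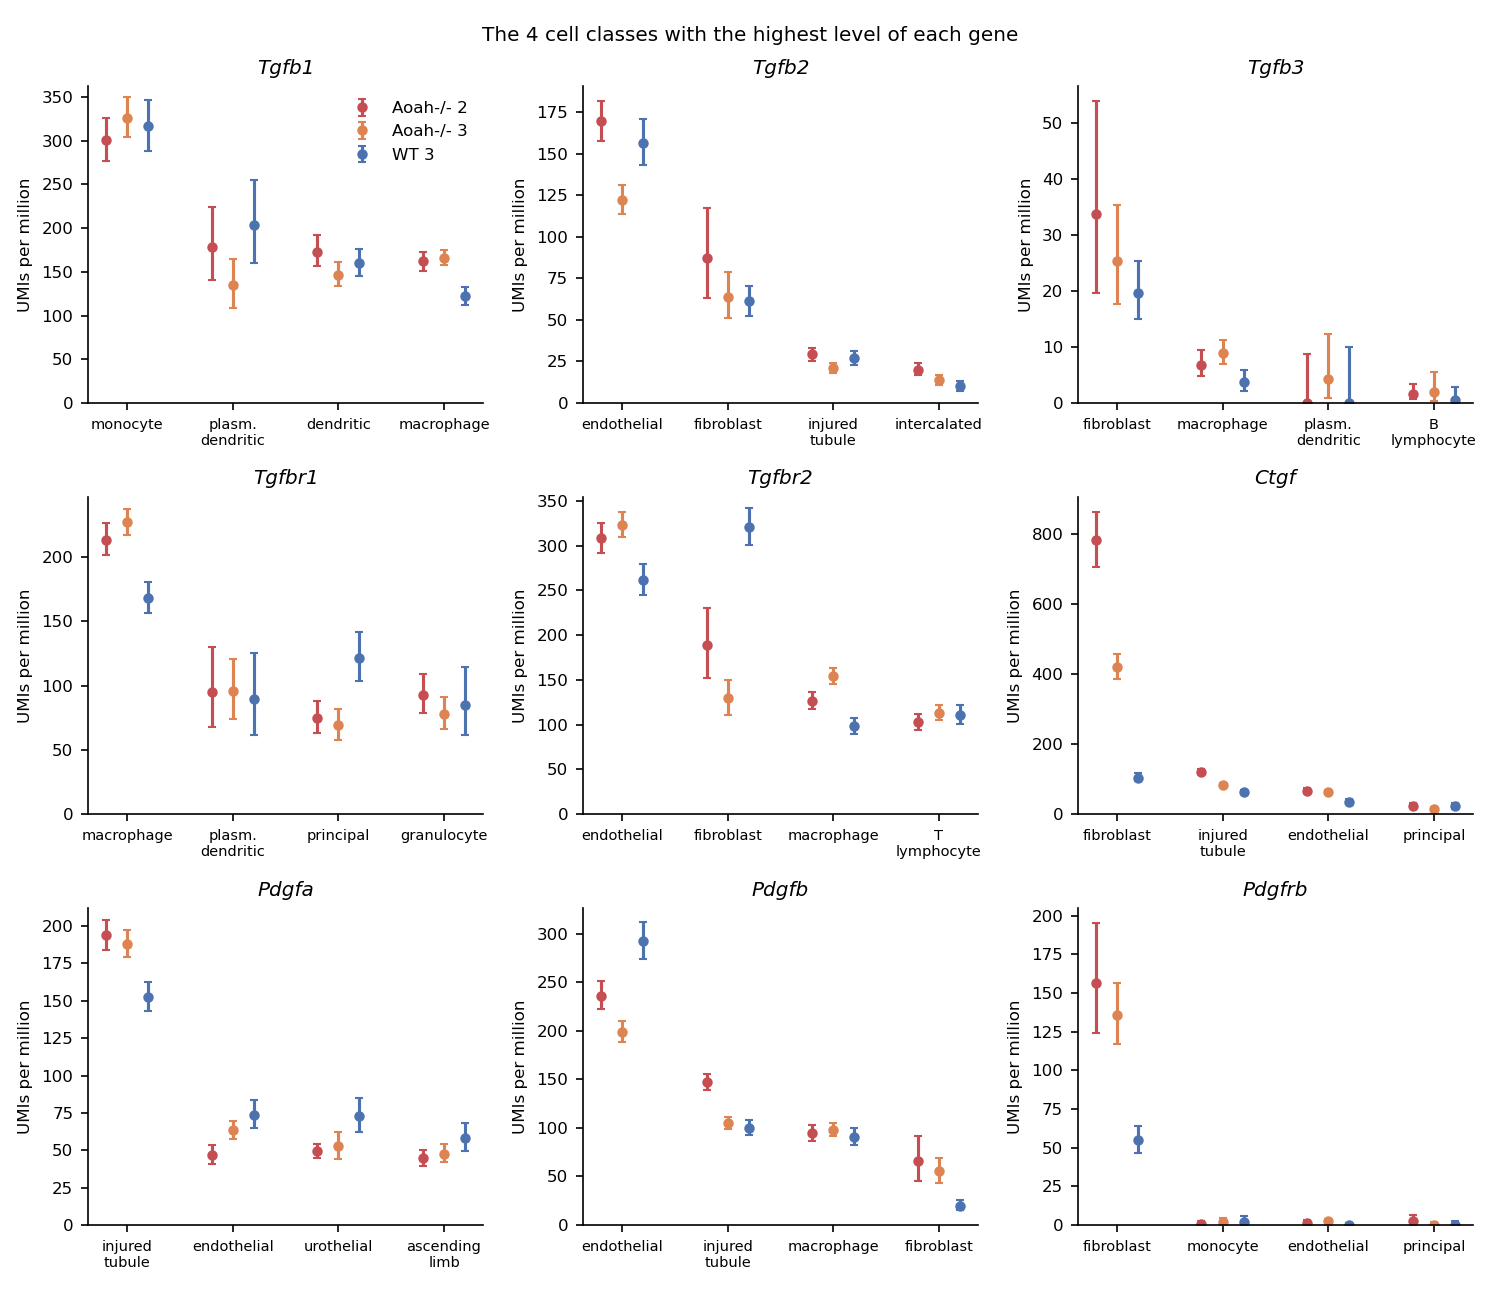
CPM of each gene in the 4 cell classes with its highest mean, one point per library with its exact Poisson 95% interval; only classes with at least 50 cells in each library are drawn, and the vertical axes start at 0. Pdgfa stood apart in injured tubule-like cells (152 to 194 CPM) and Pdgfb in endothelial-like cells (199 to 292 CPM), while the fibroblast-like levels of Ctgf, Tgfbr2 and Pdgfrb spread widely between libraries.

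The TGF-beta receptors were more evenly spread than the ligands. Tgfbr1 (ENSMUSG00000007613, chr4:47353222-47414931, plus strand), the signalling kinase of the receptor pair, was highest in macrophage-like cells, with 214 CPM in Aoah-/- 2, 227 CPM in Aoah-/- 3 and 168 CPM in WT 3. Principal-like cells of the collecting duct had 74.7, 69.0 and 121 CPM, the second highest WT level among these classes. Every class with at least 50 cells in each library except erythroid-like cells held Tgfbr1 at more than 10 CPM in every library. Its log2 ratio in macrophage-like cells was 0.39 ± 0.06, and it was 0.20 with median-of-ratios scaling. The number of cells in the shallowest macrophage-like cluster, whose Tgfbr1 was 51.4, 30.4 and 21.9 CPM, differed between the libraries (870, 102 and 1136 cells), and without that cluster the ratio was 0.17. In the cluster led by Ccl4 and C1qa the level was 260.2, 265 and 219 CPM.

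Tgfbr2 (ENSMUSG00000032440, chr9:116084293-116175360, minus strand), the receptor that binds TGF-beta, was highest by its mean over the libraries in endothelial-like cells, at 308, 323 and 262 CPM in Aoah-/- 2, Aoah-/- 3 and WT 3. In WT 3 alone, fibroblast-like cells were higher, at 321 CPM. In contrast to Tgfb2, it was highest in the Plvap cluster of these cells, at 388, 404 and 383 CPM, and lower in the Tm4sf1 and Ptprb cluster, at 262, 259 and 212 CPM. The endothelial-like cluster with the most ligand was thus not the cluster with the most receptor, in any library. The range of fibroblast-like cells (129 to 321 CPM) overlapped that of the endothelial-like class. T lymphocyte-like cells held 103 to 113 CPM and macrophage-like cells 98.3 to 154 CPM. In PTEC-like cells Tgfbr1 was at 14.4, 16.7 and 14.8 CPM and Tgfbr2 at 21.4, 24.8 and 15.6 CPM.

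Ctgf (ENSMUSG00000019997, chr10:24595442-24598683, plus strand) encodes a matrix-bound protein induced by TGF-beta and by mechanical load. Among the classes with at least 50 cells in each library it was highest in fibroblast-like cells. Its level there was 781 CPM in Aoah-/- 2, 420.3 CPM in Aoah-/- 3 and 104 CPM in WT 3. The class was made of different clusters in these libraries, which are described with the genotype comparison. Pericyte- and smooth muscle-like cells had 189, 149.8 and 169 CPM, from 55, 152 and 23 cells. Injured tubule-like cells, named from a list that holds Havcr1, Lcn2 and Vcam1, had 121, 81.9 and 63.4 CPM, and endothelial-like cells 67.0, 63.1 and 34.9 CPM. The injured tubule-like class is not a proximal tubule class. Its larger cluster, led by Lcn2 and Clu (1702 cells), had a marker score of 0 for the PTEC list and 3.66 for the ascending limb list. Umod was among the leading genes of that cluster. The smaller one, led by Vcam1 and C3 (477 cells), scored 2.04 for the PTEC list. Although the Ctgf level was highest in stroma, 61.8%, 48.1% and 54.0% of the Ctgf UMIs of Aoah-/- 2, Aoah-/- 3 and WT 3 lay in tubule- and urothelial-like classes, which held 68.5%, 61.6% and 75.3% of all UMIs.

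Pdgfa (ENSMUSG00000025856, chr5:138976014-138997370, minus strand) was highest in injured tubule-like cells among the classes with enough cells. Its level there was 194, 188 and 152 CPM in Aoah-/- 2, Aoah-/- 3 and WT 3, and no other of these classes exceeded 73.7 CPM in any library. The cluster led by Lcn2 and Clu was the stronger source, at 219, 222 and 171 CPM, against 107, 99.8 and 97.3 CPM in the cluster led by Vcam1 and C3. PTEC-like cells had 19.4, 19.2 and 15.6 CPM. Tubule- and urothelial-like classes together held 80.2%, 69.0% and 76.0% of the Pdgfa UMIs, beside 68.5%, 61.6% and 75.3% of all UMIs. The pericyte- and smooth muscle-like cells, few in number, were also high, at 193, 132 and 177 CPM.

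Pdgfb (ENSMUSG00000000489, chr15:79995874-80014977, minus strand), the ligand of PDGFRB, was highest in endothelial-like cells, at 236 CPM in Aoah-/- 2 (222 to 251), 199 CPM in Aoah-/- 3 (188 to 210.2) and 292 CPM in WT 3 (274 to 312). The WT library was the highest in each of the 3 endothelial-like clusters. Its log2 ratio was -0.43 ± 0.17 for the class, short of the 1.5-fold limit used here. Injured tubule-like cells had 147, 105 and 99.95 CPM and macrophage-like cells 94.3, 98.2 and 90.9 CPM. Unlike Pdgfa, Pdgfb was at least as high in the Vcam1 and C3 cluster of injured tubule-like cells (167, 165 and 132 CPM) as in the Lcn2 and Clu cluster (141, 82.4 and 89.2 CPM) of the same library. At 1000 UMIs per cell, 20.5%, 16.3% and 24.5% of endothelial-like cells had a Pdgfb UMI (unthinned 50.2%, 50.6% and 55.3%, median depths 3188, 3986 and 3269.5 UMIs). Ascending limb-like cells, taken as background, had one in 1.503%, 0.9804% and 0.499% (5080.5, 6884 and 3813 UMIs).

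Pdgfrb (ENSMUSG00000024620, chr18:61045150-61085061, plus strand) was found mostly in stroma-like cells. It was at 451 CPM in the pericyte- and smooth muscle-like cells of Aoah-/- 2 (369 to 546), 209.7 CPM in those of Aoah-/- 3 (176 to 249) and 234 CPM in those of WT 3 (156 to 335). In these cells the PTEC list summed to 7223, 33251 and 12432 CPM in the same order. The pericyte and smooth muscle list summed to 12856, 5991 and 12416 CPM. The part of proximal tubule RNA in the levels of this class, here and above, was not tested. Fibroblast-like cells had 157, 136 and 54.8 CPM. No other named class exceeded 2.69 CPM in any library. Stroma-like classes held 84.8%, 84.4% and 92.3% of the Pdgfrb UMIs, although they made up 0.608%, 2.06% and 2.32% of the cells.

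**Figure D3:**
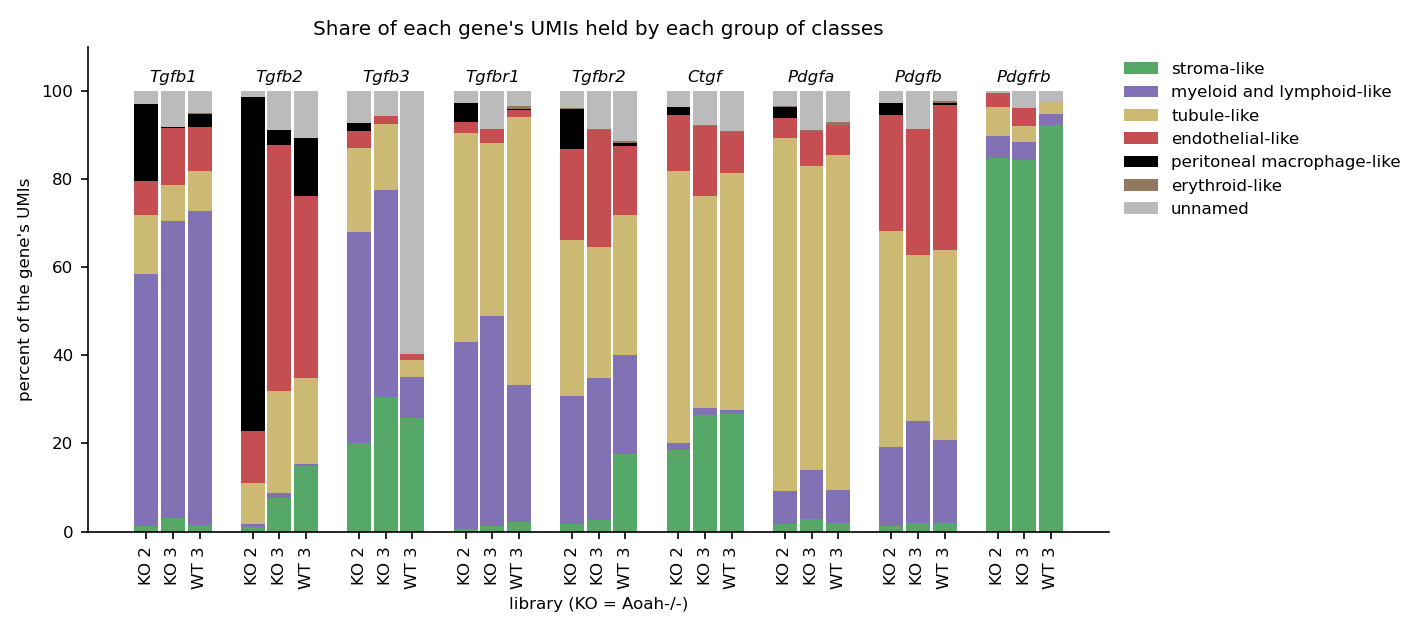
Percent of each gene's UMIs held by 7 groups of cell classes, one bar per library (KO stands for Aoah-/-); the tubule group includes urothelial-like cells. Stroma-like cells held 84.4% to 92.3% of the Pdgfrb UMIs and the tubule group 69.0% to 80.2% of the Pdgfa UMIs, peritoneal macrophage-like cells held 75.9% of the Tgfb2 UMIs of Aoah-/- 2, and unnamed cells held 59.6% of the Tgfb3 UMIs of WT 3.

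Stroma-like classes, which held most of the Pdgfrb UMIs, held at most 2.93% of the Pdgfa UMIs and at most 2.05% of the Pdgfb UMIs of a library, beside 0.559%, 1.54% and 2.502% of all UMIs in Aoah-/- 2, Aoah-/- 3 and WT 3. Both ligands were nevertheless counted there, Pdgfa in pericyte- and smooth muscle-like cells as given above and Pdgfb in fibroblast-like cells at 65.5, 55.2 and 20.04 CPM. Tubule markers were counted in both classes as well, and their part in these values was not tested. The TGF-beta ligands were split, with Tgfb1 mainly in leukocyte-like cells, Tgfb2 in endothelial-like and peritoneal macrophage-like cells, and Tgfb3 highest in fibroblast-like cells among the classes with enough cells, while the TGF-beta receptors were counted in every named class with enough cells. By the mean over libraries, Tgfb2 and Tgfbr2 were both highest in endothelial-like cells among those classes, and in WT 3 Tgfbr2 was higher in fibroblast-like cells.

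The genotypes were then compared within each class. Because there was 1 WT library, its spread between mice is unknown and no test was run; an exact permutation of 2 against 1 libraries cannot give a p below 0.333. A gene was counted as past the fold in a class when both Aoah-/- libraries were at least 1.5-fold above, or both at least 1.5-fold below, the WT library. Of 162 pairs of a gene and a class, 110 reached 20 UMIs over the 3 libraries. Of these, 26 (23.6%) were past the fold with the Aoah-/- libraries higher, where the background over all genes and the same classes was 8.67%, and 4 (3.64%) with the Aoah-/- libraries lower, where the background was 3.69%. The median log2 ratio was 0.26 over the members' pairs and 0.03 over all genes. Median-of-ratios scaling moved the median ratio of all genes by over 0.1 in 3 classes, from 0.15 to -0.04 in fibroblast-like, from 0.20 to 0.01 in macrophage-like and from 0.19 to 0.05 in granulocyte-like cells, and gave 24 higher and 4 lower. Of the 26 pairs, 15 were under 10 CPM in every library. Without the fibroblast-like class, 21 of 101 pairs (20.8%) were higher and 3 lower. Leaving out Aoah-/- 2 gave 33 higher and 8 lower, and leaving out Aoah-/- 3 gave 35 and 9. A single Aoah-/- library passes the rule more easily than both, and the background then rises too, as given in the closing section. The 8.67% and 3.69% above are not the background of these counts or of those with median-of-ratios scaling.

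**Figure D4:**
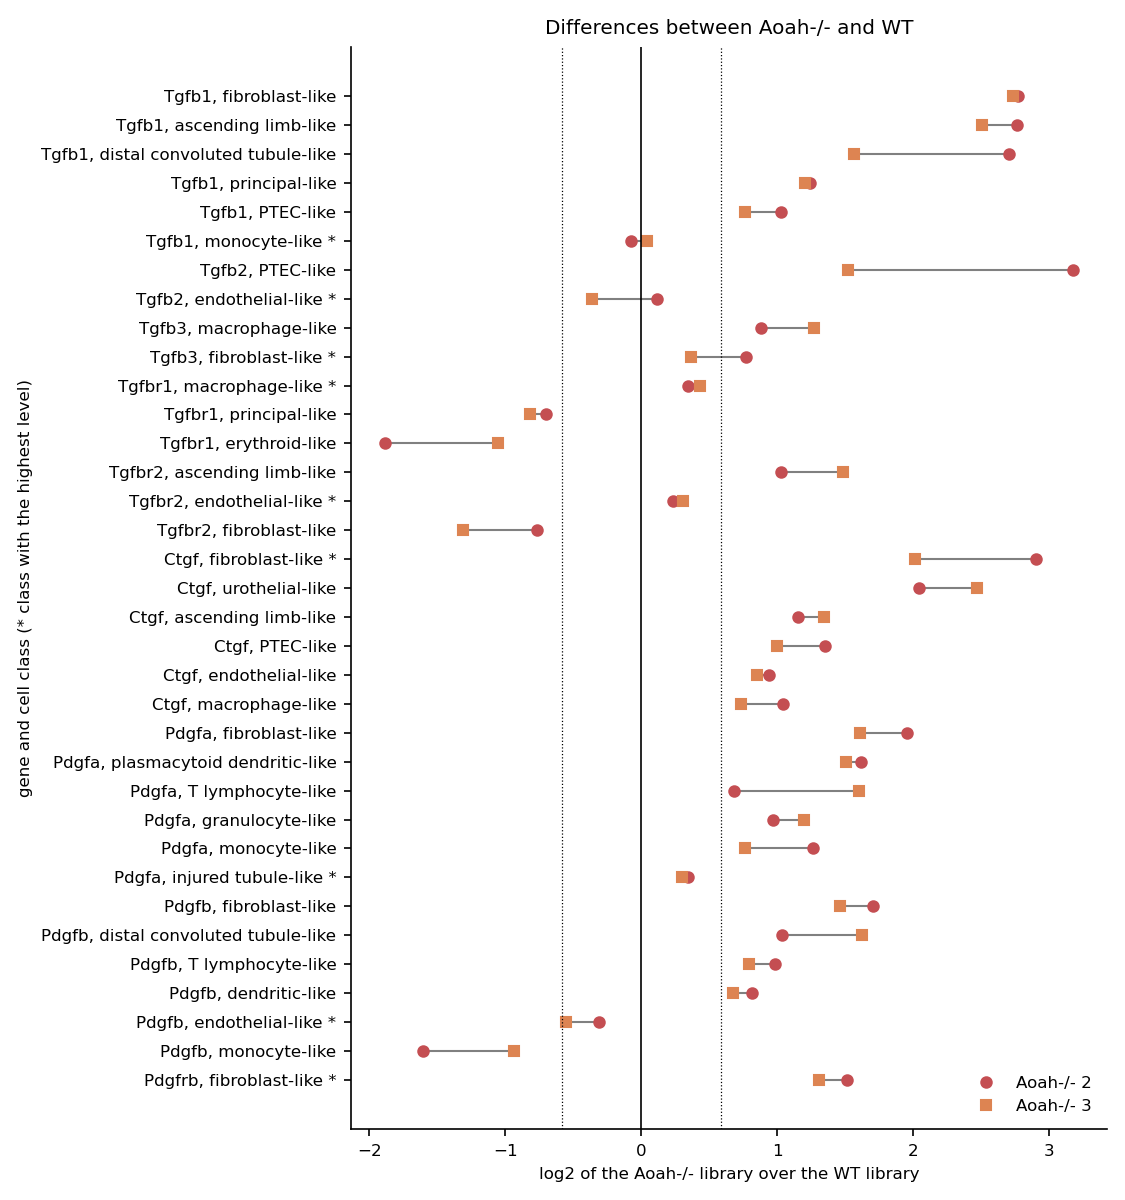
Log2 ratio of each Aoah-/- library to the WT library for every gene and class past the 1.5-fold limit (dotted lines). Each gene is also drawn in its highest class among those with at least 50 cells in each library (asterisk). The 2 pairs with no UMI in the WT library are not drawn. Of the 9 genes in their highest classes, only Ctgf and Pdgfrb, both in fibroblast-like cells, passed the limit.

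The ligands and Ctgf made up most of the pairs that were higher, and also most of the 110 pairs tested. Of the 26 higher pairs, 15 were under 10 CPM in every library. Those of Ctgf, Pdgfa and Pdgfb in fibroblast-like cells turned within the Mgp and Tagln cluster described below. Whether the counts of ligands and receptors differ apart from their levels was not tested. Of 62 ligand pairs, 17 were higher and 1 lower. Ctgf was higher in 6 of 10 classes and lower in 0. Of 38 receptor pairs, 3 were higher and 3 lower. Over all genes and the same classes 8.67% were higher and 3.69% lower, so the count of higher receptor pairs was near the background. Pairs of 1 gene in several classes of the same libraries are not independent. No member passed the fold in B lymphocyte-like, natural killer-like, injured tubule-like or intercalated-like cells, where the background was 8.02%, 7%, 7.35% and 6.16% higher and 3.59%, 3.64%, 3.31% and 2.42% lower.

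Ctgf in endothelial-like cells was past the fold, with the Aoah-/- libraries higher. It stood at 67.0 CPM in Aoah-/- 2, 63.1 CPM in Aoah-/- 3 and 34.9 CPM in WT 3, a log2 ratio of 0.90 ± 0.06, in a class where 7.45% of 12330 genes were higher and 2.13% lower. Most of its UMIs came from the Tm4sf1 and Ptprb cluster, where Ctgf was at 112 CPM (218 UMIs), 120.2 CPM (288 UMIs) and 41.6 CPM (72 UMIs), so that both Aoah-/- libraries lay well above the WT library. In the cluster led by Mgp and Tm4sf1 it was at 41.1, 58.5 and 57.9 CPM, and the WT library lay within the range of the others. The class-level difference fell short of the limit with a common UMI floor (0.60), with 30 principal components (0.71) and with the mean over cells (0.33). In this class the injured tubule list summed to 501, 636 and 338 CPM in Aoah-/- 2, Aoah-/- 3 and WT 3. The macrophage list summed to 766, 912 and 595 CPM, and the part of these other cells was not tested.

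In PTEC-like cells Ctgf was at 3.59, 2.81 and 1.40 CPM in Aoah-/- 2, Aoah-/- 3 and WT 3, Tgfb1 at 2.67, 2.22 and 1.31 CPM, and Tgfb2 at 1.35, 0.431 and 0.150 CPM. All were past the fold in a class where 10.8% of 14275 genes were higher. The class pooled 7 clusters of unlike make-up. With each library weighted equally, WT 3 gave 26.8% to 54.0% of a cluster and Aoah-/- 3 gave 5.33% to 35.6%. The part of this make-up in the differences was not tested. Levels of Ctgf, Tgfb1 and Tgfb2 were low in this class, and markers of other cells were also counted, not all of them higher in the Aoah-/- libraries. The fibroblast list of 8 genes summed to 2.65, 6.96 and 8.51 CPM in Aoah-/- 2, Aoah-/- 3 and WT 3, highest in WT 3. The macrophage list, all 10 of whose genes were counted in each library, summed to 310, 299 and 168 CPM in PTEC-like cells, the injured tubule list of 9 genes to 1156, 1027 and 446 CPM, and the peritoneal macrophage list of 12 genes to 55.1, 9.21 and 11.4 CPM with 3 of its genes at 0 in Aoah-/- 3. For every 100 UMIs of Alox15 and Prg4, PTEC-like cells had 7.92, 191 and 24.4 Tgfb2 UMIs in Aoah-/- 2, Aoah-/- 3 and WT 3 (75, 21 and 11 Tgfb2 UMIs against 947, 11 and 45), and peritoneal macrophage-like cells had 11.5, 12.1 and 6.24. The part of these other cells in the differences was not tested. In ascending limb-like cells, Tgfb1 (5.27, 4.41 and 0.773 CPM), Ctgf (13.8, 15.7 and 6.18 CPM) and Tgfbr2 (13.4, 18.4 and 6.57 CPM) were past the fold, in a class with a background of 6.97% higher and 5.77% lower, and the macrophage list summed to 462, 497 and 312 CPM there. The Tgfb1 value there came from 56 UMIs, and its log2 ratio went from 2.65 to -1.74 when cells above 20% mitochondrial UMIs were left out.

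In macrophage-like cells Tgfb3 stood at 6.86 CPM in Aoah-/- 2, 8.97 CPM in Aoah-/- 3 and 3.72 CPM in WT 3, from 38, 74 and 17 UMIs, where 10.4% of genes were higher. Within the Ccl4 and C1qa cluster the levels were 8.51, 11.2 and 5.87 CPM. Tgfb2 in the same class was called against 0 WT UMIs. Measured against the level of 3 UMIs in WT 3, it was 4.12-fold higher in Aoah-/- 2 and 1.48-fold higher in Aoah-/- 3, the latter short of the 1.5-fold limit. The counting error of the 15 and 8 Aoah-/- UMIs is not part of these ratios. For every 100 UMIs of Alox15 and Prg4, macrophage-like cells had 9.68 and 133 Tgfb2 UMIs in Aoah-/- 2 and Aoah-/- 3 (15 against 155 and 8 against 6). Peritoneal macrophage-like cells had 11.5 and 12.1, and their part in this difference was not tested. Pdgfrb in endothelial-like cells was likewise called against 0 UMIs in WT 3, from 7 and 15 UMIs. Measured against the level of 3 UMIs it was 1.74-fold and 2.56-fold higher, again without the counting error of the Aoah-/- UMIs.

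The PDGF ligands were higher in several leukocyte-like classes, mostly at low levels. In T lymphocyte-like cells 2 of 5 tested genes were higher and 0 lower (background 7.22% and 2.15%), namely Pdgfa at 1.77, 3.34 and 1.10 CPM in Aoah-/- 2, Aoah-/- 3 and WT 3 and Pdgfb at 11.4, 10.03 and 5.78 CPM. In these cells the macrophage list of 10 genes summed to 453, 413 and 152 CPM, with 1 gene at 0 in WT 3, and the injured tubule list of 9 genes to 241, 289 and 130 CPM, with 1 gene at 0 in Aoah-/- 3 and in WT 3; their part in the result was not tested. In dendritic-like cells 1 of 5 was higher (background 6.97% and 1.89%), Pdgfb at 26.6, 24.1 and 15.1 CPM, a log2 ratio of 0.75 that became -0.081 with the mean over cells, and fell short of the fold without the top Scrublet doublet scores (0.55) and with median-of-ratios scaling (0.66). In plasmacytoid dendritic-like cells 1 of 4 was higher (background 8.13% and 5.73%), Pdgfa at 33.3, 30.9 and 10.8 CPM from 14, 22 and 4 UMIs. The higher Pdgfa of monocyte-like cells (background 7.05%) and of granulocyte-like cells (background 20.8% and 3.79%) came from 28 and 34 UMIs in all. In monocyte-like cells the log2 ratio of 1.04 fell short of the fold without those scores (0.31) and at clustering resolution 2 (0.55). In granulocyte-like cells it was 1.09, against -0.0097 without those scores, -0.14 with the mean over cells and 0.60 when cells above 20% mitochondrial UMIs were left out. Among epithelial classes, 2 of 6 genes were higher in distal convoluted tubule-like cells (background 6.27% and 2.06%), Tgfb1 at 5.598, 2.53 and 0.855 CPM from 43 UMIs and Pdgfb at 4.09, 6.16 and 1.995 CPM from 60 UMIs. The macrophage list there summed to 431, 248 and 181 CPM, with all 10 genes counted, and the T lymphocyte list of 9 genes to 22.4, 20.5 and 3.70 CPM, with 2 at 0 in WT 3; their part was not tested. In urothelial-like cells 1 of 7 was higher (background 7.64% and 4.65%), Ctgf from 45 UMIs.

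Lower values in the Aoah-/- libraries were few. Pdgfb in monocyte-like cells was at 10.3 and 16.3 CPM in Aoah-/- 2 and Aoah-/- 3 and at 31.2 CPM in WT 3 (20, 38 and 45 UMIs), where 3.35% of genes were lower. Tgfbr1 was lower in principal-like cells, at 74.7 and 69.0 against 121 CPM, a log2 ratio of -0.76 ± 0.08 in a class where 3.99% of genes were lower and 5.62% higher. In injured tubule-like cells Tgfbr1 was at 54.8 and 53.7 against 79.7 CPM, which did not pass the fold. The lower Tgfbr1 of erythroid-like cells (3.16, 5.61 and 11.6 CPM) rested on 27 UMIs in a class with a background of 4.86% lower and 6.78% higher, and its log2 ratio was 0.06 with 30 principal components.

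The fibroblast-like class had the most pairs past the fold, with 5 of 9 higher and 1 lower beside a background of 15.4% and 10.0%, but it was made of different clusters in the 2 genotypes. The cluster led by Mgp and Tagln, the latter a gene of contractile cells, held 65 of 75 cells in Aoah-/- 2, 234 of 253 in Aoah-/- 3 and 45 of 399 in WT 3. The cluster led by Dcn and Pi16, a gene of adventitial fibroblasts, held 354 of the WT cells. Over the class the injured tubule list summed to 12103, 12933 and 1607 CPM in Aoah-/- 2, Aoah-/- 3 and WT 3. In the Dcn and Pi16 cells of WT 3, Ctgf was at 3.73 CPM, Tgfb1 at 9.70 CPM, Pdgfrb at 45.5 CPM and Tgfbr2 at 348 CPM. In the Mgp and Tagln cells of WT 3 they were at 964, 67.0, 134 and 89.4 CPM.

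Within the Mgp and Tagln cluster the differences of the class were mostly lost or turned. Ctgf was at 831 CPM in Aoah-/- 2, 446 CPM in Aoah-/- 3 and 964 CPM in WT 3, so the WT library was the highest, with a log2 ratio of -0.59 ± 0.63 against 2.53 ± 0.63 for the class. Pdgfrb was at 156, 142 and 134 CPM, with a log2 ratio of 0.15 ± 0.10 against 1.42 ± 0.15, and the 3 Poisson intervals overlapped. Tgfbr2 was at 193, 136 and 89.4 CPM, at least 1.5-fold higher in both Aoah-/- libraries, where the class as a whole was lower (log2 ratio 0.88 against -1.01). Pdgfa and Pdgfb turned as well, to log2 ratios of -0.76 and -1.12 from 1.79 and 1.59. Tgfb1 alone kept its direction past the fold, at 116, 110.2 and 67.0 CPM (54, 143 and 21 UMIs), with a ratio of 0.75 ± 0.05 in place of 2.75. The 3 Poisson intervals of Tgfb1 overlapped as well. In this cluster the fibroblast list summed to 16409, 20380 and 12269 CPM in Aoah-/- 2, Aoah-/- 3 and WT 3. The injured tubule list was nearly as high, at 13031, 13705 and 10638 CPM, against 551 CPM in the Dcn and Pi16 cluster of WT 3. The macrophage list summed to 1666, 1875 and 469 CPM. The part of injured tubule and macrophage RNA in the values of this cluster, Tgfb1 among them, was not tested.

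**Figure D5:**
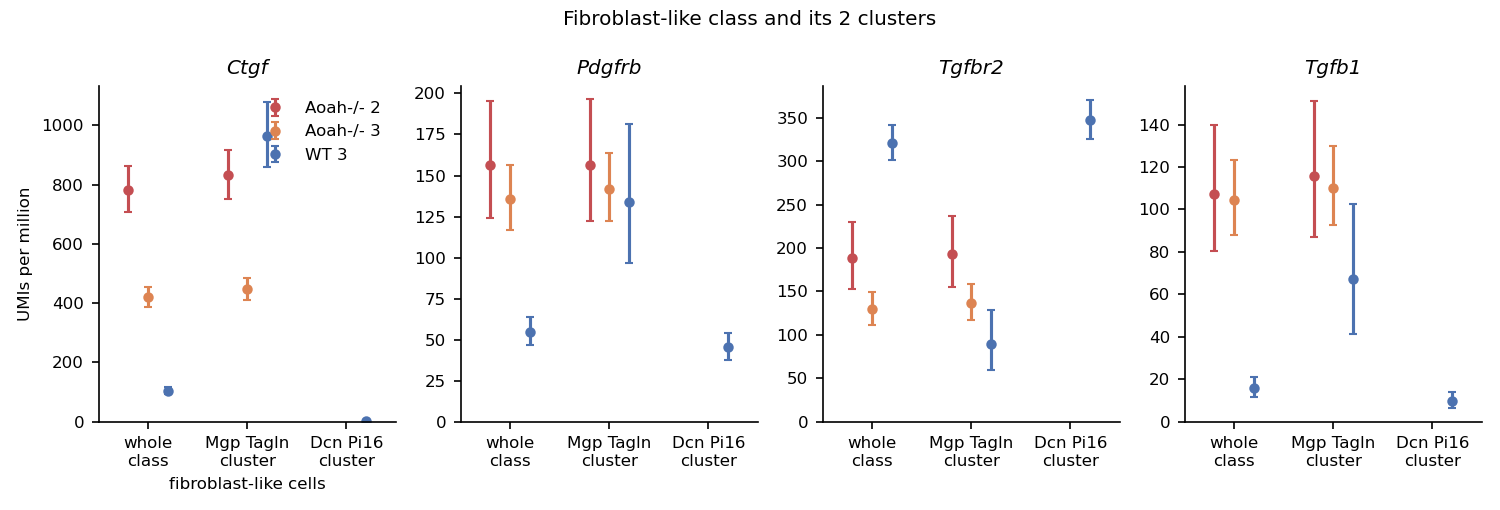
CPM of 4 genes in the whole fibroblast-like class and in its 2 clusters, one point per library with its exact Poisson 95% interval; a library with fewer than 40 cells in a cluster is not drawn there. Ctgf was lower in WT 3 for the whole class (104 CPM) but highest in WT 3 within the Mgp and Tagln cluster (964 CPM), and the Pdgfrb points drew together in that cluster.

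Other genes of the pathways were read from a list of 35 fixed genes, all of them in the tables. Over all classes, 77 of 444 pairs were past the fold with the Aoah-/- libraries higher and 21 lower, beside the background of 8.67% and 3.69%, and the median log2 ratio was 0.15. In injured tubule-like cells 10 of 32 genes were higher and 0 lower, where the background was 7.35% and 3.31%. They included Fn1, the fibronectin gene, at 76.1, 42.0 and 19.0 CPM in Aoah-/- 2, Aoah-/- 3 and WT 3, and Pdgfc, a further PDGF ligand, at 13.8, 13.9 and 4.35 CPM. Acta2, also past the fold, was at 16.3, 1.56 and 0.483 CPM, with Aoah-/- 2 far above the others. In the same cells the PTEC list summed to 4357, 4803 and 9689 CPM, the macrophage list to 549, 575 and 353 CPM, the pericyte and smooth muscle list to 87.8, 48.1 and 37.2 CPM and the peritoneal macrophage list to 60.4, 23.9 and 16.3 CPM. Their part in these differences was not tested.

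In macrophage-like cells 8 of 30 genes were higher and 0 lower, where the background was 10.4% and 1.72%. Thbs1, whose product thrombospondin 1 can release TGF-beta from its latent form, stood at 90.5, 60.0 and 16.4 CPM, the TGF-beta target Pmepa1 at 308, 318 and 193 CPM, and the inhibitory Smad7 at 42.6, 49.96 and 27.4 CPM. Fn1 (163, 92.4 and 35.3 CPM), Smad6, Smurf1, Acta2 and Pdgfc were the others. The clusters of this class differed in size, with 715, 1023 and 564 cells in the Ccl4 and C1qa cluster, 870, 102 and 1136 in the shallowest cluster, and 77, 238 and 35 in the cluster led by Lyz2, Mmp12 and Gpnmb. Within the Ccl4 and C1qa cluster Thbs1 was at 67.5, 45.97 and 15.5 CPM, Fn1 at 51.1, 9.09 and 3.80 CPM, Pmepa1 at 305, 268 and 187 CPM and Smad7 at 46.9, 53.3 and 35.2 CPM, so that Pmepa1 was short of the fold in Aoah-/- 3 and Smad7 in Aoah-/- 2. Within the Lyz2, Mmp12 and Gpnmb cluster Pmepa1 was level, at 454, 464 and 452 CPM, while Thbs1 stood at 227, 99.5 and 43.6 CPM and Fn1 at 599, 296 and 205 CPM. Smad7 was at 52.1, 44.7 and 24.2 CPM in that cluster, from 55, 106 and 15 UMIs, at least 1.5-fold above WT 3 in both Aoah-/- libraries. The peritoneal macrophage list summed to 95.9, 24.9 and 27.4 CPM in the class, and its part was not tested. In PTEC-like cells, beside a background of 10.8% higher and 3% lower, 7 of 33 were higher (Ltbp1, Ltbp3, Thbs1, Nrros, Tgfbi, Timp1 and Acta2), none of them above 6.57 CPM in any library. Cyr61, a close relative of Ctgf, was lower there, at 59.2 and 59.8 against 106 CPM, from 14005 UMIs in all, as were Pdgfd and Pdgfrl. The part of the unlike cluster make-up of the PTEC-like class in these values was not tested. In endothelial-like cells, beside a background of 7.45% and 2.13%, 3 of 32 were higher, namely Nrros (23.0, 21.6 and 10.6 CPM), Tgfbi (7.68, 7.29 and 2.73 CPM) and Pdgfc (6.095, 5.89 and 2.73 CPM), and 0 lower. In the Ccl4 and C1qa cluster Nrros was at 154, 171 and 193 CPM and Tgfbi at 238, 225 and 230 CPM. The macrophage list summed to 766, 912 and 595 CPM in endothelial-like cells and to 310, 299 and 168 CPM in PTEC-like cells. Its part in the Nrros and Tgfbi values of both classes was not tested. The endothelial co-receptor Eng, at 884, 863 and 818 CPM, did not pass the fold, nor did Ltbp4, which binds latent TGF-beta, at 464, 408 and 493 CPM.

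In fibroblast-like cells 15 of 34 genes were higher and 7 lower, where the background itself was 15.4% and 10.0% and the cell make-up differed as described. Timp1 (754, 653 and 38.1 CPM), Acta2 (424, 221 and 24.0 CPM), Ltbp2 (198, 136 and 4.67 CPM) and Pmepa1 (1023, 763 and 265 CPM) were among those higher. Pdgfra, the receptor for PDGF-A (149, 98.7 and 385 CPM), Tgfbr3 (83.3, 39.9 and 270.5 CPM), Ltbp1 (29.7, 26.9 and 154 CPM) and Fn1 (1067, 759 and 1977 CPM) were among those lower. Both PDGF receptors thus differed between the libraries in opposite directions in this class, along with the share of its clusters.

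The genes most like each member in their distribution were ranked by Pearson's r of log2(CPM + 1) over 58 sums of a class in a library, with 14332 genes ranked. The sums of 1 library share its depth and free RNA, so r is a description only. Pdgfrb was most like Des (r = 0.97), Postn and Myl9, all genes of stromal cells, and Tgfb3 was most like Myl9 (r = 0.85), Col14a1 and Postn. Ctgf was most like Nrep (r = 0.91), Serpinh1 and Zfp334. Tgfb2 was most like Ltbp1 (r = 0.88), the gene of a latent TGF-beta binding protein, followed by Cald1 and Efnb2. Tgfb1 was most like Crlf2 (r = 0.95), Psmb9 and H2-D1. Pdgfb was most like Vcam1 (r = 0.79), Nes and Tnfsf12, and Pdgfa most like Ift43 (r = 0.82), Zfp704 and Nenf. The receptors Tgfbr1 and Tgfbr2 were most like Slc12a9 (r = 0.74) and Xaf1 (r = 0.84), followed by Ints12 and Rragc for Tgfbr1 and by Ubn1 and Uba7 for Tgfbr2.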

How the data were processed

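The deposited files are UMI counts per gene and barcode from 10x Chromium 3′ libraries of collagenase-digested kidney. The submitters' notes name Cell Ranger 3.1.0, STAR, Seurat 4.2.0 and mm10, while the matrix headers name cellranger 6.1.2, so the version is uncertain. The authors deposited these counts without normalization, with barcodes already limited to those called as cells, and no cell annotation was used here.

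A barcode was used when it had 200 or more genes and no more than 50% of its UMIs from mitochondrial genes. Counts were scaled to 10000 per cell and logged, and 2000 variable genes, 50 principal components, 15 neighbours and Leiden resolution 1 gave the clusters (Python 3.11.15, scikit-learn 1.9.0, igraph 0.11.9). The 9 genes, the pathway list, Aoah, Cd74 and MHC class II genes were left out of the variable genes. No batch correction was applied. Scrublet, in scanpy 1.11.5, called 544, 0 and 201 cells as doublets in Aoah-/- 2, Aoah-/- 3 and WT 3. Its call of 0 was taken as a failure, so no cell was removed by it in the main values.

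Clusters were named by marker lists, comparing CPM + 10 with the median cluster over genes detected in at least 10% of cells. A name needed a mean log2 fold of 2 over the 5 best markers, 3 markers at 2-fold, 50 cells and 1 of the class's markers among its 10 top genes. A cluster in which another lineage scored at least 0.6 of it stayed unnamed. This scoring rule was set after the clusters were seen, and shares may differ from the study's own names. Unnamed cells numbered 725, 4384 and 672. UMIs were summed per class and library. With 1 WT library no test between genotypes was run. A pair counted as past the fold needed at least 20 UMIs over the 3 libraries, and a class at least 50 cells in each library. A count of 0 allows up to 3 UMIs. Intervals are exact (scipy 1.17.1). The rule for calling a pair past the fold was tried on simulated class sums with known changes larger than the limit and counting error only. The simulation held no spread between mice, so it cannot show how often that spread passes the rule. No result reported here rests on it. The named genes were the 9 members, pathway genes past the fold in PTEC-like, macrophage-like, endothelial-like or fibroblast-like cells or highest of their group where a member is highest, and the 3 genes most like each member. The pathway genes named in injured tubule-like cells were chosen after their values were seen. The members and lists were chosen with earlier results of these data known. The closing section gives 13 planned and 4 added alternatives.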

Additional observations from a re-analysis of the deposited data

Results flagged for a closer look

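Tgfbr2 was past the fold in opposite directions in 2 classes, higher in the Aoah-/- libraries in ascending limb-like cells and lower in fibroblast-like cells, with log2 ratios 2.29 apart. The difference was not tested. The fibroblast-like value is for a class whose clusters differ between the libraries.

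Pdgfb was lower in the Aoah-/- libraries in monocyte-like cells and higher in 4 other classes. The log2 ratios were apart by 2.12 for T lymphocyte-like, 1.98 for dendritic-like, 2.59 for distal convoluted tubule-like and 2.82 for fibroblast-like cells. These differences were not tested either, and they share the single WT value in monocyte-like cells.

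A cluster that was left unnamed because it carried both fibroblast and mesothelial markers, with Dcn, Igfbp6 and Upk3b among its leading genes, held Tgfb3 at 86.2 CPM in WT 3. It came almost wholly from that library, with 99.4% by equal weight, and no Aoah-/- level can be set beside it.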

How the results depend on the processing

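No paired analysis was possible because the groups share only replicate number 3 and the WT group has 1 library. Recomputing gave 501 differences of single genes in a class, over 35 results. Of these, 450 were scored as the same, 25 lost the fold, 17 moved and 9 reversed. For a result past the fold, the same meant an unchanged direction and side of the fold. For a result not past it, the same meant a shift smaller than the SD of the Aoah-/- log2 ratios. Direction or side of the fold could therefore still change in such a result. Of the alternatives, 4 were chosen after seeing the data. These 4 changed only the fibroblast-like or the macrophage-like class, so results in all other classes stayed the same by construction. Leaving out 1 Aoah-/- library cannot lose a fold that both libraries passed. Many of the 450 were therefore fixed beforehand, and the tally does not measure how robust the results are.

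The number of pairs lower in the Aoah-/- libraries was 4 as reported. It was 2 with at least 500 genes per barcode, 2 with the same lowest UMI total in all libraries and 2 at Leiden resolution 2. Each of these settings compared 17 classes, without the fibroblast-like class. As reported, that class held 1 of the 4 lower pairs and 9 of the 110 pairs tested. The counts of 2 therefore cover fewer classes than the 4, and no background is set beside them. The number of lower pairs was 7 with the mean over cells, and 8 to 9 when 1 Aoah-/- library was left out. The background of genes higher was 3.999% at 2-fold and 13.5% to 14.6% with 1 Aoah-/- library left out. The background of genes lower was 8.69% without a UMI minimum, 1.10% at 2-fold and 7.67% to 9.40% with 1 Aoah-/- library left out. Without a UMI minimum, 129 pathway pairs were higher and 47 lower. These came out of more pairs than the 444 tested with the minimum, among them pairs of very few UMIs. No background of genes higher is set beside them, so they are not comparable with the main counts.

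Cluster borders at resolution 2, with the common UMI total and with at most 20% mitochondrial UMIs also shifted with the threading of the arithmetic, which was fixed to 1 thread, and the PDGF ligands of monocyte-like cells at resolution 2 were among the values that moved. Averaged over the libraries, the Pdgfrb share of stroma-like cells was 71.8% with 500 genes, 72.04% with the common UMI total and 71.6% at resolution 2, against 87.2% as reported. Fibroblast-like cells were too few to be compared under those 3 settings, as were monocyte-like cells with 30 principal components. The Tgfb1 share of leukocyte-like cells was 51.6% with 30 principal components, and the Pdgfb share of endothelial-like cells was 33.2% with at most 20% mitochondrial UMIs. In the main setting monocyte-like cells held 10.7%, 13.9% and 14.5% of the Tgfb1 UMIs of Aoah-/- 2, Aoah-/- 3 and WT 3. The part of their missing name in the 51.6% was not tested.

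Log2 ratios that reversed were those of Tgfb1 in ascending limb-like cells (-1.74 with at most 20% mitochondrial UMIs), Pdgfb in dendritic-like cells (-0.081 with the mean over cells), Tgfbr1 in erythroid-like cells (0.056 with 30 principal components) and Pdgfa in granulocyte-like cells (-0.0097 without the top 10% by Scrublet score and -0.14 with the mean over cells). With the Mgp and Tagln cluster alone as the fibroblast-like class, the ratios were 0.88 for Tgfbr2, -0.59 for Ctgf, -0.76 for Pdgfa and -1.12 for Pdgfb. That setting changes which cells are summed. For the others the cause was not tested. Pairs under 10 CPM rest on few UMIs, which limits their precision.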
